A study of Homo sapiens with 4 samples.

Results

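The 9 genes described here make, carry and read retinoic acid: the retinaldehyde dehydrogenases ALDH1A1, ALDH1A2 and ALDH1A3, the retinaldehyde reductase DHRS3, the carrier CRABP2, and the nuclear receptors RARA, RARB, RARG and RXRA. They were taken by name from the 32973 genes of the deposited table. They were chosen because ALDH1A3 stood out in one cell line and ALDH1A1 in the other, so the values that separate the lines chose them, and each difference between the lines is a description with no test. The effect of BCUC-1 is not part of the stated reason for the choice, and it is tested. Earlier results of these data were known when the genes were chosen.

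RNA sequencing was done on 2 human bladder cancer cell lines, T24T, a derivative of T24, and UMUC3. Cells of both lines carried, by stable transfection, a plasmid that overexpresses BCUC-1 (the circular RNA hsa_circ_0001361) or the vector. The 4 groups, T24T BCUC-1, T24T vector, UMUC3 BCUC-1 and UMUC3 vector, held 1 library each, and the purpose was to find genes downstream of BCUC-1. All cells were grown in serum-containing RPMI-1640 medium, and whether a transfected line was 1 clone or a pool is not given in the sources used here. With 1 library per group there was no replicate check, so a difference inside 1 line is one between a pair of libraries. In bulk RNA, fewer cells with a transcript and less of it per cell cannot be told apart. Between 22730112 and 26497894 reads were assigned to genes per library. The epithelial keratins KRT8 and KRT18 were abundant in both lines (KRT8 at 146 and 133 RPKM in the BCUC-1 and vector libraries of T24T, and 13.2 and 13.0 RPKM in those of UMUC3). Of 12 listed urothelial markers, 1 reached 1 RPKM in T24T BCUC-1 (UPK1B, 1.03), 1 in T24T vector (FOXA1, 1.17) and 0 in the UMUC3 libraries. Their summed level was 3.09 and 4.04 RPKM in T24T BCUC-1 and vector, and 1.46 and 1.48 RPKM in UMUC3 BCUC-1 and vector. Among the lowest of the 12 were UPK3A, KRT20 and KRT5, with at most 0.0419, 0.0229 and 0.0295 RPKM. UPK2 had 0.345 and 0.955 RPKM in T24T BCUC-1 and vector, and 0.477 and 0.580 RPKM in UMUC3 BCUC-1 and vector. Of the 6 epithelial markers, 3 reached 1 RPKM in every library: KRT8, KRT18 and KRT7. The epithelial adhesion genes CDH1 and EPCAM had at most 0.00686 and 0.219 RPKM, and the keratin KRT19 at most 0.0363 RPKM.

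Retinol is oxidised to retinaldehyde by retinol dehydrogenases, and DHRS3 turns retinaldehyde back into retinol. The ALDH1A enzymes oxidise retinaldehyde to retinoic acid in a step that is not reversed. CRABP2 hands retinoic acid to RAR receptors, which bind DNA as partners of RXR, and enzymes of the CYP26 family break retinoic acid down. Retinoic acid keeps the bladder lining in its urothelial state, and a lack of vitamin A turns it into a keratinised squamous lining.

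The promoters of the genes that separate the lines are shown first, because both enzymes make the same product and their start regions differ in base composition. Each is the RefSeq window from 250 bases before to 50 bases after the transcription start on GRCh38.p14, written 5′ to 3′ along the gene, with the CCAAT box in capitals. The ALDH1A3 window lies at chr15:100879581-100879880 on the plus strand and the ALDH1A1 window at chr9:72953004-72953303 on the minus strand.
ALDH1A3: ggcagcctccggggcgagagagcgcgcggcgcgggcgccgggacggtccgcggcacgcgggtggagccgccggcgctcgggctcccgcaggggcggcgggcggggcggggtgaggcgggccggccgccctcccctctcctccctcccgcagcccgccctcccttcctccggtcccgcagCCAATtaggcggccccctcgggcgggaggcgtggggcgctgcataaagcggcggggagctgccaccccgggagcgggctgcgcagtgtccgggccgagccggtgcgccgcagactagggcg
ALDH1A1: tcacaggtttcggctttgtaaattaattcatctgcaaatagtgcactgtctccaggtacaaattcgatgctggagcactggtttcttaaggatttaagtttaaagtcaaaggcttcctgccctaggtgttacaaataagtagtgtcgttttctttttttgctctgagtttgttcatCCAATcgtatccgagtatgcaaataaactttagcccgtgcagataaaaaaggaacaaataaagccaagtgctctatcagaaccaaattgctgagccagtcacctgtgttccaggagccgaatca
The ALDH1A3 window was 81.7% G and C and held 46 CpG dinucleotides, more than 97.1% of the 35116 RefSeq promoter windows. The ALDH1A1 window was 40.3% G and C and held 7 CpG dinucleotides, more than 36.8% of the windows. The median of all windows was 14 CpG dinucleotides. Each held 1 CCAAT match, a box that 34.6% of the windows had on either strand. The motif GGGCGG, found in 45.0% of the windows on either strand, had 6 matches in the ALDH1A3 window and 0 in that of ALDH1A1. A match is a run of letters, not a site shown to be bound.

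RARB is shown because it is a textbook retinoic acid target with a response element next to its start. Retinoic acid receptors bind direct repeats, which are a pair of 6-base arms in the same direction with a fixed spacer. The repeat with a spacer of 5 bases is called DR5. It was searched on both strands, and 31 of the 35116 windows, 0.0883%, held it. Among the 18 windows of the 9 genes, 1 held a DR5, the RARB window at chr3:25428013-25428312 on the plus strand, and 0 held a repeat with a spacer of 2 bases. The DR5 is in capitals.
RARB: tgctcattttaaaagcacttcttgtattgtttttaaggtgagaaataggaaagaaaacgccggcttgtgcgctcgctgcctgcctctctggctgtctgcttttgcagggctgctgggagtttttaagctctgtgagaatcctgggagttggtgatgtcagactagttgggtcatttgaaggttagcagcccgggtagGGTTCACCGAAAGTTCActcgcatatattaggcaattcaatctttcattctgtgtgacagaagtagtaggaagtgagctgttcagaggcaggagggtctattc
CYP26A1, the main retinoic acid hydroxylase of the embryo and itself a target, had a DR5 too, on the strand opposite to the gene. The elements alone, arms in capitals and spacer in lower case, lie at chr3:25428210-25428226 for RARB and chr10:93073803-93073819 for CYP26A1.
RARB DR5: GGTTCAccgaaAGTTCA
CYP26A1 DR5: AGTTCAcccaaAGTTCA
The second arm was AGTTCA in both. In the RARB window the element ran from 53 to 37 bases before the start, and in the CYP26A1 window from 90 to 74 bases before it.

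Both lines expressed an ALDH1A gene strongly, and each line expressed a different one. The ALDH1A3 gene spans chr15:100877714-100916626 (plus strand, GRCh38) and has 5772 exonic bases. It had 158 RPKM in T24T BCUC-1 and 163 RPKM in T24T vector, against 0.259 RPKM in UMUC3 BCUC-1 and 0.157 RPKM in UMUC3 vector. RPKM scales reads by exonic length and by the assigned reads of the library. The T24T libraries were both far above the UMUC3 libraries, with no overlap. In reads these were 21464 and 22288 in T24T BCUC-1 and vector, and 34 and 24 in UMUC3 BCUC-1 and vector. Summed over both libraries of a line, RPM, which scales reads by depth alone, was 786 times as high in T24T as in UMUC3 (exact 95% interval 608 to 1035). This interval and those that follow cover counting error only. Among 31403 genes of at least 200 bases, ALDH1A3 ranked 210th by RPKM in T24T BCUC-1 and 197th in T24T vector. It ranked 17630th and 18886th in UMUC3 BCUC-1 and UMUC3 vector.

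ALDH1A3 shares bases with other transcripts, and whether reads were counted by strand is not given in the sources used here. The antisense gene RP11-66B24.4, named AC015712.2 in GENCODE 29, shares 1585 of its 6792 exonic bases with ALDH1A3. It had 61.8 and 64.1 RPKM in T24T BCUC-1 and vector, and 0.382 and 0.339 RPKM in UMUC3 BCUC-1 and vector. RP11-66B24.8, on the same strand, shares 63 bases and had 50.4 and 52.8 RPKM in T24T BCUC-1 and vector, against 0.0780 RPKM in UMUC3 BCUC-1 and 0 reads in UMUC3 vector. Reads of ALDH1A3 and of these transcripts cannot be told apart where they overlap. In UMUC3 the antisense gene had 59 and 61 reads in the BCUC-1 and vector libraries, more than ALDH1A3 itself.

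ALDH1A1 had the opposite pattern. Its gene spans chr9:72900662-73080442 (minus strand) with 2849 exonic bases, and no other listed gene overlaps its exons. It had 0.104 RPKM in T24T BCUC-1 and 0.0593 RPKM in T24T vector, against 36.9 RPKM in UMUC3 BCUC-1 and 41.5 RPKM in UMUC3 vector. The lines did not overlap, and UMUC3 was the high one. The T24T values rest on 7 and 4 reads in the BCUC-1 and vector libraries, the UMUC3 values on 2389 and 3133. Over both libraries its RPM was 482 times as high in UMUC3 as in T24T. ALDH1A1 ranked 1330th of the 31403 genes in UMUC3 BCUC-1 and 1156th in UMUC3 vector.

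ALDH1A2, the main retinaldehyde dehydrogenase of the early embryo, was near 0 in all 4 libraries. The gene, at chr15:57953424-58497866 on the minus strand, had 10 and 10 reads in T24T BCUC-1 and vector, and 3 and 0 reads in UMUC3 BCUC-1 and vector. In UMUC3 vector the limit of 3 reads set for a count of 0 is 0.0131 RPKM, and the exact Poisson 95% interval reaches 0.0161 RPKM. The 3 enzymes summed to 158 and 163 RPKM in T24T BCUC-1 and vector, and to 37.2 and 41.7 RPKM in UMUC3 BCUC-1 and vector. A single gene made up nearly all of each sum. ALDH1A3 was 99.9% of it in both T24T libraries, and ALDH1A1 was 99.3% and 99.6% of it in UMUC3 BCUC-1 and UMUC3 vector.

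**Figure D1:**
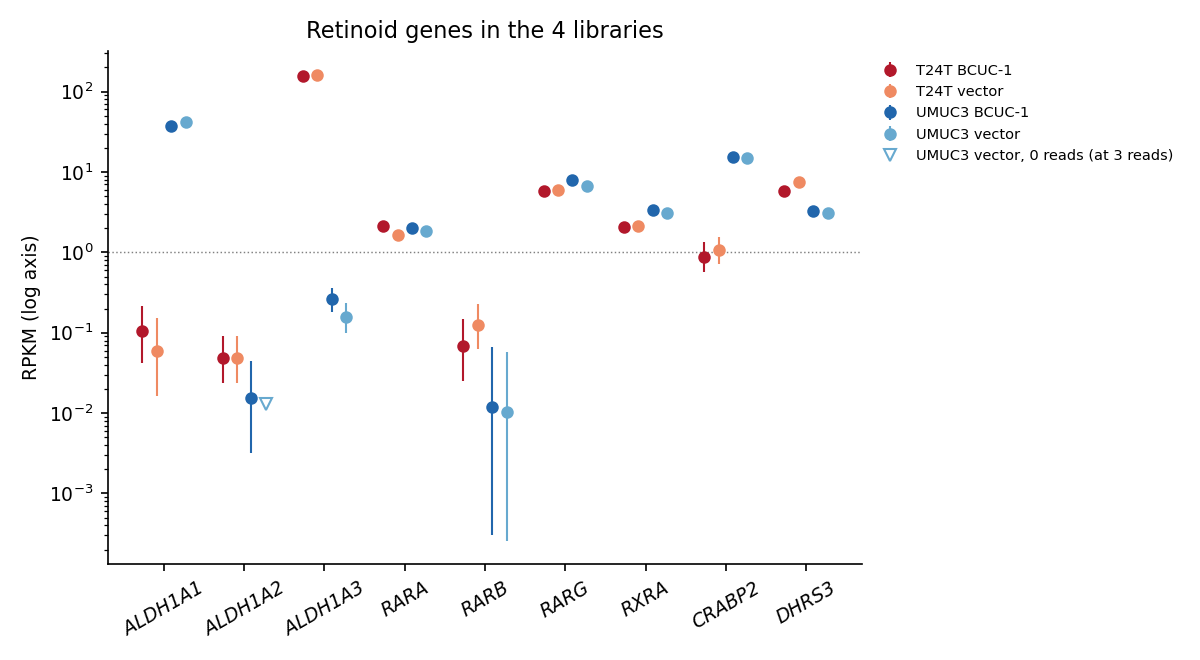
RPKM (log axis) of the 9 retinoid genes in T24T BCUC-1, T24T vector, UMUC3 BCUC-1 and UMUC3 vector, 1 point per library with its exact Poisson 95% interval. The dotted line is 1 RPKM, and the open triangle stands at the 3-read limit of ALDH1A2 in UMUC3 vector, which had 0 reads. ALDH1A3 sits at 158 and 163 RPKM in T24T and below 1 RPKM in UMUC3, and ALDH1A1 the other way round.

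CRABP2, the carrier that delivers retinoic acid to the receptors, was also higher in UMUC3. CRABP2 (chr1:156699606-156705816, minus strand) had 0.886 RPKM in T24T BCUC-1 and 1.07 RPKM in T24T vector, against 15.2 RPKM in UMUC3 BCUC-1 and 14.8 RPKM in UMUC3 vector. Both T24T libraries, with 23 and 28 reads, lay below both UMUC3 libraries, with 380 and 431 reads. Its RPM was 15.3 times as high in UMUC3.

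DHRS3, which removes retinaldehyde and is itself induced by retinoic acid in many cells, was higher in T24T. DHRS3 (chr1:12567910-12617731, minus strand) had 5.74 RPKM in T24T BCUC-1 and 7.55 RPKM in T24T vector, against 3.29 RPKM in UMUC3 BCUC-1 and 3.08 RPKM in UMUC3 vector. The lines did not overlap, and RPM was 2.09 times as high in T24T (1.87 to 2.34).

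The line differences of the receptors RARA, RARG and RXRA were smaller than those of ALDH1A3 and ALDH1A1. RARG (chr12:53210567-53232980, minus strand) was the most abundant RAR in every library. It had 5.79 and 6.0 RPKM in T24T BCUC-1 and vector, and 7.84 and 6.62 RPKM in UMUC3 BCUC-1 and vector. These values did not overlap between the lines, but the counting intervals of T24T vector (5.57 to 6.45) and UMUC3 vector (6.19 to 7.06) did. RARG made up 72.7% and 77.1% of the summed RAR level in T24T BCUC-1 and vector, and 79.3% and 77.9% in UMUC3 BCUC-1 and vector. RARA (chr17:40309192-40357643, plus strand) had 2.11 and 1.65 RPKM in T24T BCUC-1 and vector, and 2.04 and 1.87 RPKM in UMUC3 BCUC-1 and vector. The RARA values of the lines overlapped. RXRA, the partner of the RARs, is at chr9:134317098-134440585 on the plus strand. It had 2.05 and 2.12 RPKM in T24T BCUC-1 and vector, and 3.34 and 3.10 RPKM in UMUC3 BCUC-1 and vector, with no overlap between the lines.

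RARB, whose loss is common in carcinomas, was close to 0 in every library. Its gene is at chr3:25174332-25597932 on the plus strand, and a stretch of 28 of its exonic bases overlaps the abundant TOP2B on the other strand. It had 6 and 11 reads in T24T BCUC-1 and vector (0.0688 and 0.126 RPKM), and 1 and 1 read in UMUC3 BCUC-1 and vector (0.0119 and 0.0102 RPKM). In the shared bases its reads cannot be told apart from those of TOP2B, which had between 43.3 and 49.2 RPKM. CYP26A1, the other gene shown with a DR5, had 3 and 4 reads in T24T BCUC-1 and vector, and 2 and 2 reads in UMUC3 BCUC-1 and vector.

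The order of the 9 genes within a library followed these levels. In T24T BCUC-1 it ran ALDH1A3, RARG, DHRS3, RARA, RXRA and CRABP2, followed by ALDH1A1, RARB and ALDH1A2. RARG and DHRS3, RARA and RXRA, and the last 3 genes had overlapping counting intervals there. In T24T vector DHRS3 stood above RARG and RXRA above RARA, with intervals apart, while RARA and CRABP2 overlapped. In both UMUC3 libraries it ran ALDH1A1, CRABP2, RARG, RXRA, DHRS3, RARA and ALDH1A3, with RXRA and DHRS3 overlapping. ALDH1A2 and RARB came last there, with overlapping intervals.

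Set beside all genes tested, ALDH1A3 had the largest difference towards T24T and ALDH1A1 the 5th largest towards UMUC3, on the contrast that chose them. The difference of log2(RPKM + 1), averaged over the vector and BCUC-1 libraries, was taken for the 15415 genes that reached 1 RPKM in 2 of the 4 libraries or more. ALDH1A2 and RARB were below that level, so 7 of the 9 genes were among them. ALDH1A3 stood at 7.06, first of the 15415. ALDH1A1 stood at -5.21 and CRABP2 at -3.01, in places 5 and 88 from the UMUC3 end. The remaining values were 0.86 for DHRS3, -0.04 for RARA, -0.25 for RARG and -0.45 for RXRA. A gene was called different where the lines did not overlap and the difference reached 1, which is 2-fold. ALDH1A3 was called higher in T24T and ALDH1A1 and CRABP2 lower, where 10.2% and 7.73% of the 15415 genes were called higher and lower. The genes were chosen on this contrast, so nothing is read from these counts. DHRS3 was just under the call, at 1.07 from the vector libraries alone and 0.65 from the BCUC-1 libraries alone.

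**Figure D2:**
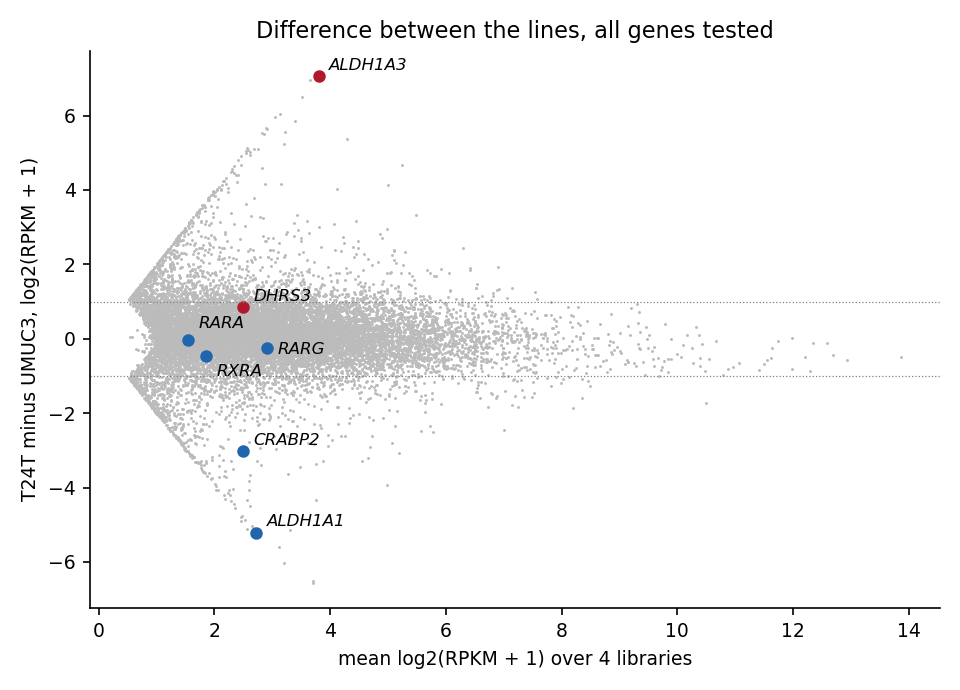
Difference between the lines (T24T minus UMUC3, log2(RPKM + 1), mean over vector and BCUC-1 libraries) against mean level for the 15415 genes tested, in grey, with 7 retinoid genes named. The dotted lines mark a 2-fold difference. ALDH1A3 is at the top of the plot at 7.06, ALDH1A1 near its foot at -5.21, and the receptors lie near 0.

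The genes most like these in pattern were found by the Euclidean distance of log2(RPKM + 1) over the 4 libraries, with each gene centred on its own mean. For ALDH1A3 the nearest was PADI2, a peptidylarginine deiminase, at a distance of 0.14. PADI2 had 133 and 146 RPKM in T24T BCUC-1 and vector, and 0.125 and 0.12 RPKM in UMUC3 BCUC-1 and vector. PADI3, of the same enzyme family (distance 0.57), ARHGEF35 (1.02), STMN3 (1.11) and the growth factor MDK (1.2) came next. ARHGEF35 belongs to a group of near-identical copies, so its reads are uncertain. For ALDH1A1 the nearest were the cancer-testis genes MAGEA4 (0.17) and MAGEA6 (0.18). MAGEA4 had 0.124 and 0.0548 RPKM in T24T BCUC-1 and vector, and 36.2 and 36.3 RPKM in UMUC3 BCUC-1 and vector. HTATIP2 (0.25), the pseudogene CTB-60B18.15 (0.31) and MAGEC2 (0.37) followed. MAGEA6 has a near-identical copy, and an unprocessed pseudogene can share reads with the gene it was copied from. The measure was taken among 14823 genes over 4 libraries of 2 lines, so it mostly follows the difference between the lines.

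The question of the study, which genes follow BCUC-1, was asked of the retinoid genes over both lines with limma, with the line as a block. None of the 7 genes tested passed a Benjamini-Hochberg adjusted p of 0.05. Over all genes 0 of 15415 passed (0%), 652 had an unadjusted p under 0.05, and limma-voom on recovered reads called 13 (0.0843%), none of them a retinoid gene. At a floor of 5 RPKM limma called 60 of 8830 genes, and 0 of the 5 retinoid genes left. Of the 7, 0 had an unadjusted p under 0.05 in either fit. The largest value was that of RARA, a log2 change of 0.16 (SE 0.10, limma Benjamini-Hochberg adjusted p 0.998), higher with BCUC-1 in 2 of 2 lines, though below 0 in UMUC3 once the GC trend was removed. DHRS3 stood at -0.14 (SE 0.12) and RARG at 0.086 (SE 0.10), each with opposite signs in the lines. The values of ALDH1A1, CRABP2, ALDH1A3 and RXRA lay between -0.053 and 0.037. The median change was 0.024 for the 7 genes and 0.0035 for the 15415, whose SD was 0.13. With 4 libraries and 3 coefficients, 1 residual degree of freedom was left, and limma moderated the spread over all genes. In simulated counts the same fit called 6 of 97 changes of 1.5-fold, so a gene not called may still have changed.

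Within T24T, the lower DHRS3 and the higher RARA of the BCUC-1 library were the differences beyond counting error among the genes other than ALDH1A3. DHRS3 had 411 reads with BCUC-1 and 543 with vector, a ratio of RPM of 0.760 (0.667 to 0.865). RARA had 235 reads with BCUC-1 and 185 with vector, a ratio of 1.28 (1.05 to 1.55). RARA shares 291 bases with CTD-2267D19.1 and 556 with RARA-AS1, both on the other strand. CTD-2267D19.1 had 47 and 32 reads in T24T BCUC-1 and vector, and reads in the shared bases cannot be told apart. ALDH1A3 had a ratio of 0.967 (0.949 to 0.985), and with the libraries scaled to equal medians its log2 difference was -0.015 in place of -0.049. RARG (0.965), RXRA (0.965) and CRABP2 (0.825, 0.454 to 1.48) had intervals that included 1. Counting intervals leave out the variation between cultures, which was not measured.

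On log2(RPKM + 1) 0 of 6 retinoid genes reached a 2-fold difference in T24T, where 0.602% of 14946 genes did. With a rule chosen after the data were seen, an RPM ratio of 1.25 or more either way and 100 reads over both libraries, 1 of 5 retinoid genes was higher (RARA) and 1 lower (DHRS3). By that rule 1.25% of 14120 genes were higher and 4.6% were lower. The rule was set with the values of the retinoid genes known, so nothing is read from these counts.

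Within UMUC3, ALDH1A1 was lower and RARG higher in the BCUC-1 library. ALDH1A1 had 2389 reads with BCUC-1 and 3133 with vector, a ratio of 0.889 (0.842 to 0.938). RARG had 914 reads with BCUC-1 and 899 with vector, a ratio of 1.19 (1.08 to 1.30) at the smaller depth of the BCUC-1 library. RARA (1.09, 0.903 to 1.32), RXRA (1.08, 0.979 to 1.19), DHRS3 (1.07, 0.887 to 1.28) and CRABP2 (1.03, 0.893 to 1.18) had intervals that included 1. So did the 34 and 24 reads of ALDH1A3 with BCUC-1 and vector (1.65, 0.951 to 2.91). On log2(RPKM + 1) 0 of 6 retinoid genes reached a 2-fold difference in UMUC3, where 0.753% of 14347 genes did. None of the 6 with 100 reads differed 1.25-fold, where 7.04% of 13795 genes were higher and 4.14% lower by that rule. Nothing is read from this count either.

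**Figure D3:**
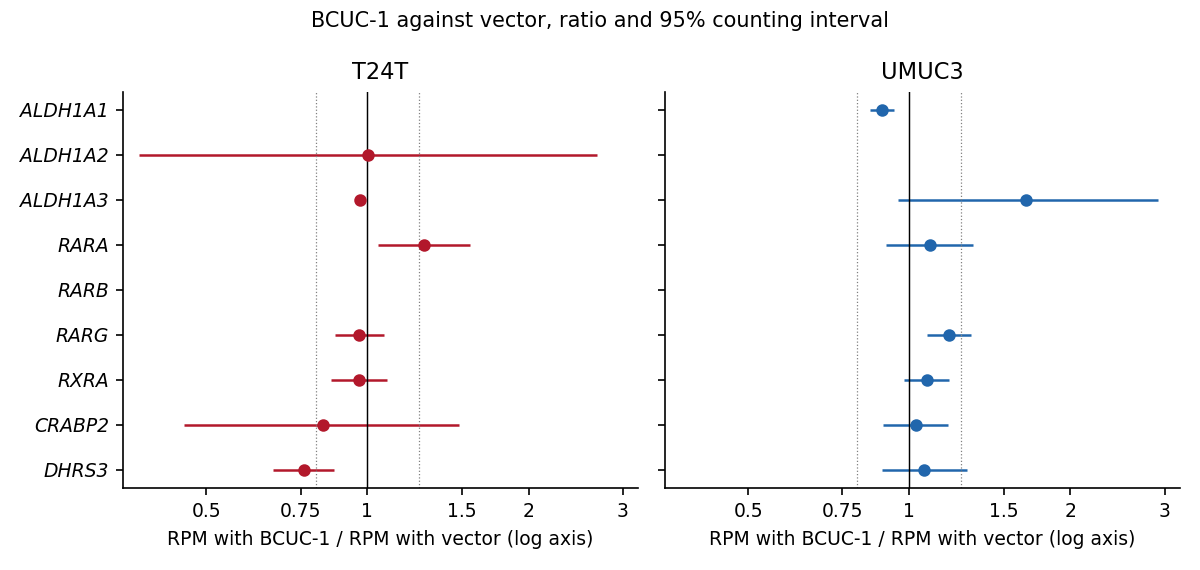
Ratio of RPM with BCUC-1 to RPM with vector (log axis) in T24T and UMUC3, with the 95% counting interval, for retinoid genes with 20 or more reads over both libraries. The solid line is a ratio of 1 and the dotted lines are 1.25-fold either way. DHRS3 in T24T, at 0.760, is the furthest below 1.

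Base composition moved with the UMUC3 values. Among the 15303 genes tested with a known GC content, the median log2 difference of UMUC3 was -0.12 in the lowest and 0.14 in the highest of 10 equal groups by GC content. The T24T medians were between -0.027 and -0.0049. ALDH1A1, at 41.9% GC, had a UMUC3 log2 difference of -0.17 where its GC group had a median of -0.031. RARG, at 60.0% GC, had 0.22 where its group had 0.12. With the GC trend removed, ALDH1A1 stood at -0.12 and RARG at 0.089. RARA, RXRA, CRABP2 and DHRS3 were then between -0.052 and -0.018 in UMUC3, below 0 in place of above it, so no direction is given for them. In T24T, DHRS3 stood at -0.33 and RARA at 0.25 with the trend removed, close to their -0.34 and 0.23 without it.

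**Figure D4:**
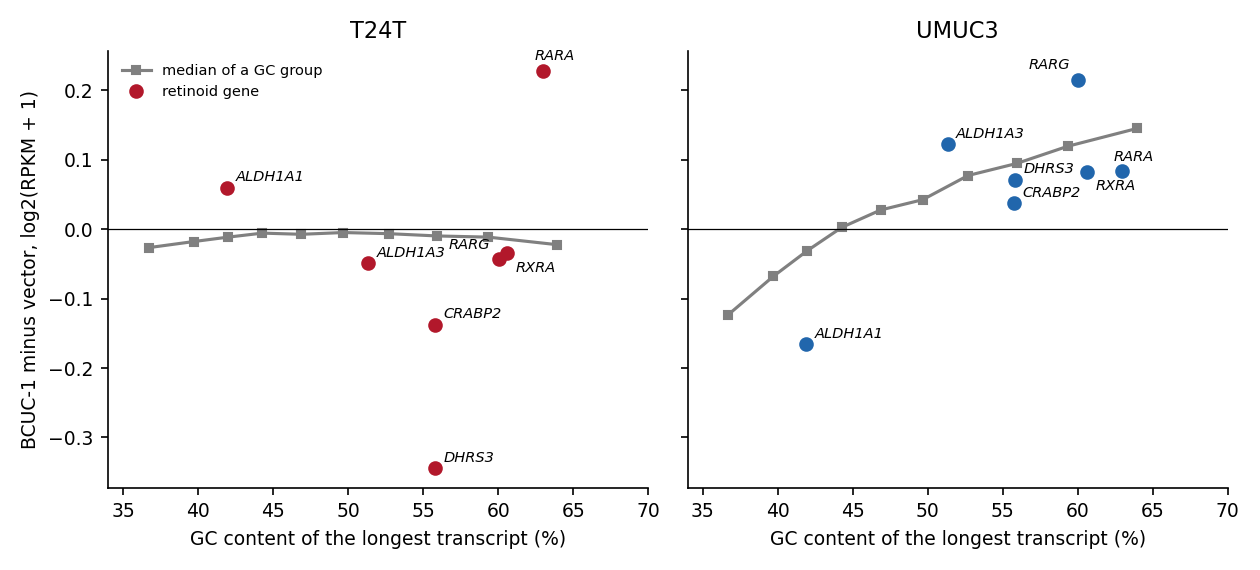
Log2 difference between BCUC-1 and vector libraries (log2(RPKM + 1)) against GC content of the longest transcript, for T24T and UMUC3. Grey squares are medians of 10 equal groups of all genes tested, and coloured points are the 7 retinoid genes tested. The grey line climbs to 0.14 in UMUC3 and is nearly flat in T24T, where DHRS3 at -0.34 and RARA at 0.23 lie well off it.

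The rest of the pathway was described with 7 lists of genes, of which none had a member past limma's adjusted p of 0.05 for BCUC-1, and none a member with an unadjusted p under 0.05. With limma-voom on recovered reads, TBL1XR1 alone among their tested genes had an unadjusted p under 0.05 (0.027, Benjamini-Hochberg adjusted p 0.998). It was lower in 2 of 2 lines, with a log2 change of -0.16 (SE 0.073) in that fit. TBL1XR1 is 34.5% GC, and limma gave -0.063 (SE 0.054) with the GC trend removed, against -0.15 (SE 0.077) with it. In retinoid uptake, binding and storage, 2 of 14 genes reached 1 RPKM in 2 libraries. FABP5, which carries fatty acids and can carry retinoic acid to PPARD, had 54.0 and 48.7 RPKM in T24T BCUC-1 and vector, and 35.9 and 36.7 RPKM in UMUC3 BCUC-1 and vector. DGAT1, which makes fat and retinyl esters, had 6.73 and 7.14 RPKM in T24T BCUC-1 and vector, and 10.3 and 7.79 RPKM in UMUC3 BCUC-1 and vector. STRA6, the cell-surface receptor of the retinol carrier, had at most 0.0785 RPKM.

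Of the retinol dehydrogenases and retinaldehyde reductases, 8 of 19 reached that level. RDH11 had the highest mean, with 30.3 and 30.6 RPKM in T24T BCUC-1 and vector, and 29.3 and 30.8 RPKM in UMUC3 BCUC-1 and vector. ADH5 had 34.7 and 34 RPKM in T24T BCUC-1 and vector, and 20.8 and 21.8 RPKM in UMUC3 BCUC-1 and vector. RDH10, the dehydrogenase that supplies retinaldehyde in embryos, had between 2.29 and 2.43 RPKM in the 4 libraries. RDH14 averaged 11.2 RPKM over the libraries. DHRS4, at 2.70 and 2.18 RPKM in T24T BCUC-1 and vector and 6.79 and 6.25 RPKM in UMUC3 BCUC-1 and vector, and AKR1B1 (line difference -0.85) were higher in UMUC3.

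Of the 6 genes of retinoic acid breakdown on the list, CYP26B1 and CYP2S1 reached 1 RPKM in 2 libraries. Both did so through the T24T libraries alone, so that filter fixed which line was higher. Both were called higher in T24T, beside 10.2% of all genes tested, and nothing is read from this count. CYP26B1, a retinoic acid hydroxylase, had 403 and 393 reads in T24T BCUC-1 and vector (3.41 and 3.31 RPKM), against 1 and 1 read in UMUC3 BCUC-1 and vector. Its RPM was 415 times as high in T24T (114 to 3429). CYP2S1, a P450 that can act on retinoic acid, had 205 and 204 reads in T24T BCUC-1 and vector and 0 reads in both UMUC3 libraries. Against a limit of 3 reads over both UMUC3 libraries, its RPM was at least 142-fold higher in T24T, and the exact 95% interval of the ratio begins at 115. CYP1B1, which was below 1 RPKM throughout, had 72 and 68 reads in T24T BCUC-1 and vector and 0 in both UMUC3 libraries, at least 48.6-fold higher in T24T on the same limit, with an exact 95% interval that begins at 39.0. CYP1B1 was named after its values were seen.

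Among the other receptors and RXR partners, 8 of 14 were tested and 0 were called different between the lines, where 17.9% of all genes tested were called either way. NR1H2, the liver X receptor beta, had 5.42 and 5.53 RPKM in T24T BCUC-1 and vector, and 9.89 and 9.18 RPKM in UMUC3 BCUC-1 and vector. PPARD, RXRB and THRA averaged 7.07, 5.83 and 3.65 RPKM over the 4 libraries. PPARG, a driver of urothelial differentiation and partner of RXRA, had 1.60 and 1.83 RPKM in T24T BCUC-1 and vector, and 1.65 and 1.87 RPKM in UMUC3 BCUC-1 and vector, and was named after its values were seen.

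Of the coregulators 14 of 15 were tested. The coactivator NCOA3 had 23.7 and 25.8 RPKM in T24T BCUC-1 and vector, and 4.34 and 3.96 RPKM in UMUC3 BCUC-1 and vector, with an RPM 5.99 times as high in T24T. NRIP1, a corepressor that is induced by retinoic acid, had 2.56 and 2.99 RPKM in T24T BCUC-1 and vector, and 0.435 and 0.440 RPKM in UMUC3 BCUC-1 and vector. TBL1X, a part of the NCOR complex, was higher in UMUC3 (line difference -1.18). CNOT1, HDAC3 and TBL1XR1 averaged 24.8, 15.6 and 15.4 RPKM and had line differences between -0.17 and 0.12. Of the 14, 13 were lower with BCUC-1 in T24T, with a median of -0.059, and 9 were higher in UMUC3, with a median of 0.081. The 13 include NCOR1 (-0.00022) and CNOT1 (-0.00035), which were nearly equal in the T24T libraries. The UMUC3 signs were taken without removal of the GC trend. Over all 15415 genes, 8542 were lower in T24T with a median of -0.013, and 8752 were higher in UMUC3 with a median of 0.026.

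Of the 21 textbook retinoic acid target genes on the list, 17 were in the table and 6 reached 1 RPKM in 2 libraries, a level that 46.8% of all 32973 genes reached. CYP26A1, RARRES1, RARRES2, RARRES3 and STRA6 each had at most 0.0785 RPKM in the 4 libraries. TGM2, a transglutaminase induced by retinoic acid in many cells, was the most abundant of them, with 30.2 and 26.4 RPKM in T24T BCUC-1 and vector, and 65.4 and 63.1 RPKM in UMUC3 BCUC-1 and vector. HOXA5 had 3.65 and 4.18 RPKM in T24T BCUC-1 and vector, and 0.696 and 0.685 RPKM in UMUC3 BCUC-1 and vector. HIC1 averaged 2.34 RPKM over the libraries. CYP26B1 and NRIP1 belong to this list too. By line, 3 of the 6 were called higher in T24T (CYP26B1, HOXA5 and NRIP1) and 1 lower (TGM2), beside 10.2% and 7.73% of all genes tested. The 3 called higher were below 1 RPKM in both UMUC3 libraries and were tested through T24T alone. Nothing is read from their count. Of the 13 listed genes with a DR5 in a RefSeq promoter window, 4 reached 1 RPKM in 2 libraries, beside the 46.8% of all genes.

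Of the 16 other aldehyde dehydrogenases, 10 were tested, and 0 were called higher and 2 lower in T24T (ALDH3B1 and ALDH7A1), where 10.2% of all genes tested were higher and 7.73% lower. ALDH9A1, ALDH18A1, ALDH1B1 and ALDH3A2 averaged 21.6, 21.4, 15.7 and 14.5 RPKM, with line differences from -0.44 to 0.050. ALDH1B1, a mitochondrial relative of the ALDH1A enzymes, had 15.2 and 14.6 RPKM in T24T BCUC-1 and vector, and 16.9 and 16.1 RPKM in UMUC3 BCUC-1 and vector. ALDH3B1 had 0.0896 and 0.108 RPKM in T24T BCUC-1 and vector, and 2.05 and 1.58 RPKM in UMUC3 BCUC-1 and vector. It was tested through the UMUC3 libraries alone, so nothing is read from its call. ALDH7A1 stood at a line difference of -1.09. Whether the contrast of ALDH1A3 with ALDH1A1 differs from that of other aldehyde dehydrogenases was not tested, since it chose them.

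**Figure D5:**
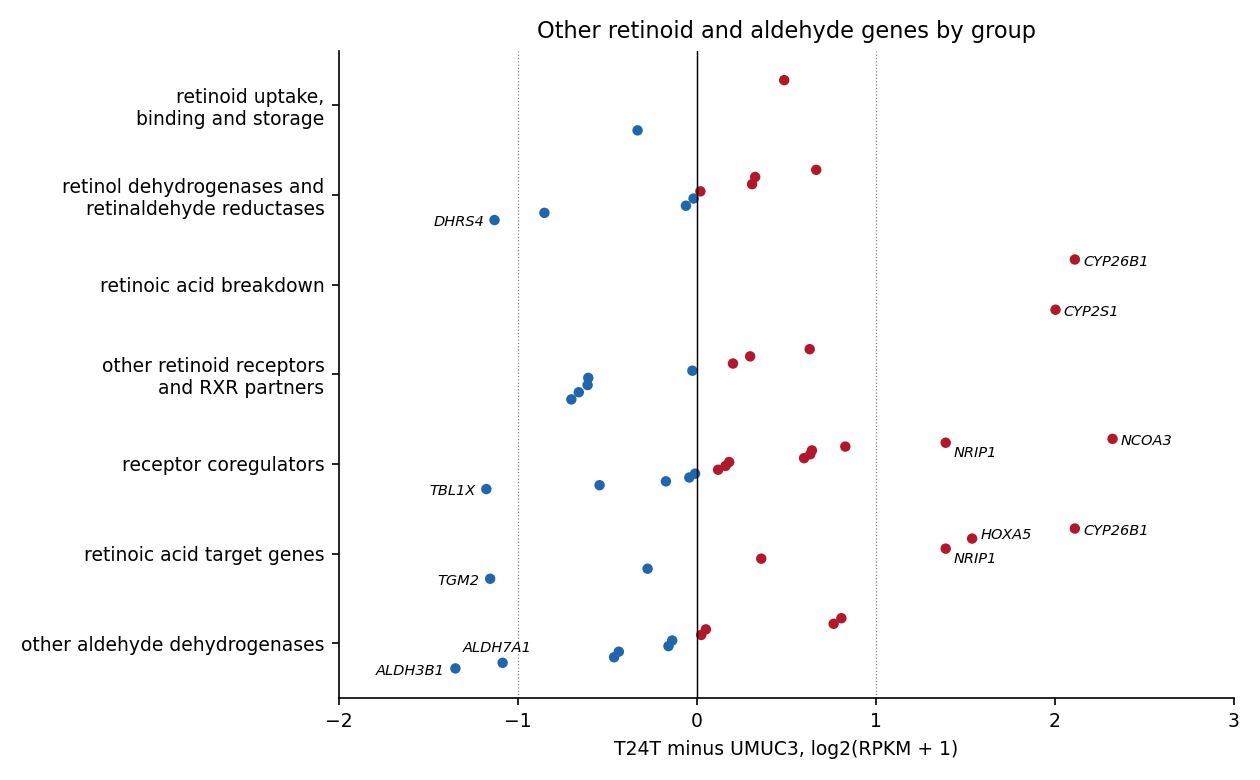
Difference between the lines (T24T minus UMUC3, log2(RPKM + 1)) for the tested genes of 7 lists around the retinoid pathway, 1 point per gene, with genes past 2-fold named. The dotted lines mark a 2-fold difference. CYP26B1 and CYP2S1, at 2.11 and 2.0, and NCOA3, at 2.32, lie furthest to the T24T side.

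The markers of other cell types that were in the table were low apart from CD68. The 7 listed fibroblast markers summed to 0.189 and 0.341 RPKM in T24T BCUC-1 and vector, and to 0.983 and 0.668 RPKM in UMUC3 BCUC-1 and vector, and the 5 endothelial markers summed to at most 0.680 RPKM in any library. Of the 7 leukocyte markers chosen, 4 were in the table, and PTPRC, CD3E and LYZ were not. CD68 had 6.78 and 7.45 RPKM in T24T BCUC-1 and vector, and 124 and 119 RPKM in UMUC3 BCUC-1 and vector. CD14 and ITGAM had at most 0.140 and 0.213 RPKM. CD68, a lysosomal protein, was high in the line where ALDH1A1 was high, and its part in the result was not tested.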

How the data were processed

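RNA of T24T and UMUC3 cells, each with BCUC-1 or vector, was extracted with a silica column kit and sequenced as Illumina libraries, per the labels. The authors deposited RPKM per gene and library and, per the file headers, the exonic length in bases, of unit "other". The submitters' processing notes name Bowtie 0.12.2. How it was used, and with which counter, build and annotation, is not given in the sources used here. Reads were recovered from RPKM and length, and 100% of values came out whole within 0.001 reads. The depths were 23588847 in T24T BCUC-1, 23679229 in T24T vector, 22730112 in UMUC3 BCUC-1 and 26497894 in UMUC3 vector. All 9 gene spans had the start and end of GENCODE 29, so coordinates are on GRCh38. Strand use in counting is not stated. Promoter windows are from RefSeq, GRCh38.p14, and all 9 genes had at least 1.

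Limma 3.58.1 (R 4.3.3), with an intensity trend and two-sided tests, was fitted to log2(RPKM + 1) of the 15415 genes that reached 1 RPKM in 2 of the 4 libraries or more, with line and treatment as terms, and p-values were adjusted over all of them. An interaction leaves no residual degree of freedom. Within a line there was no test. Intervals are exact, at 95%: Clopper-Pearson for RPM ratios and Poisson for levels (SciPy 1.17.1). A count of 0 was given a limit of 3 reads. GC content came from the longest GENCODE 29 transcript and was known for 99.3% of genes tested. The limma script was tested on simulated counts, with a dispersion that was set at 0.005 and not measured. It called 58 of 96 simulated 2-fold changes, 6 of 97 changes of 1.5-fold and 5 of 15238 unchanged genes. The members and lists were chosen with earlier results of these data known. Named pathway genes were the 4 most abundant and the 2 with the largest line difference of each list, and the 5 genes nearest in pattern to ALDH1A3 and to ALDH1A1. Other genes are named as illustrations after their values were seen. List genes missing from the table were not analysed here. One leukocyte marker is not reported here. Other settings were a floor of 5 RPKM, no filter, equal medians, a pseudocount of 0.1, quantile normalization, no line block, limma-voom on recovered reads and removal of the GC trend in 20 bins.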

Additional observations from a re-analysis of the deposited data

Results flagged for a closer look

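Of the 6 retinoid genes tested that had 20 or more reads over both libraries of each line, 5 had opposite signs of the BCUC-1 difference in T24T and UMUC3. Among all 14074 genes tested with as many reads, 50.9% had opposite signs. ALDH1A1, with 11 reads in T24T, was below that number and also had opposite signs, 0.060 in T24T and -0.17 in UMUC3. The difference between the lines was not tested, since 1 library per group leaves no residual degree of freedom for it. On log2(RPKM + 1), BCUC-1 minus vector, DHRS3 stood at -0.34 in T24T and 0.071 in UMUC3. RARG stood at -0.044 in T24T and 0.22 in UMUC3, and CRABP2 at -0.14 in T24T and 0.037 in UMUC3. ALDH1A3 stood at -0.049 in T24T and 0.12 in UMUC3, the second value from 34 reads with BCUC-1 and 24 with vector. RXRA stood at -0.035 in T24T and 0.083 in UMUC3. With the GC trend removed, the UMUC3 values of DHRS3 (-0.018), CRABP2 (-0.052) and RXRA (-0.044) had the sign of T24T. RARA, above 0 in both lines before, then had opposite signs, 0.25 in T24T and -0.052 in UMUC3. The share of all genes with opposite signs was not taken with the trend removed.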

How the results depend on the processing

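No retinoid gene was called for BCUC-1 over both lines under any of the 8 other settings. The number of genes called among all those tested was 0 as reported, 60 at a floor of 5 RPKM, 13 with limma-voom on recovered reads, 4 with libraries scaled to equal medians and 1 with a pseudocount of 0.1; it was 0 with no filter, with quantile normalization, without the line block and with the GC trend removed. The cause was not tested. The sign over both lines turned for ALDH1A1 with a pseudocount of 0.1 (0.094), for ALDH1A3 (-0.025) and CRABP2 (0.0019) with limma-voom, and for RXRA with the GC trend removed (-0.036). Within each line 0 retinoid genes were 2-fold different under any setting run. Between the lines, the number of retinoid genes at least 2-fold higher in T24T was 1, and 2 with a pseudocount of 0.1 or from the vector libraries alone, where DHRS3 stood at 1.03 and 1.07; 2 were lower in every setting run. The differences of the genes near 0 in a line depend on the pseudocount: with 0.1 in place of 1, ALDH1A3 stood at 9.04 and ALDH1A1 at -7.77. Pairing by replicate within a line was not possible because each group held 1 library. The cell line was a term of the fit as reported, which pairs the BCUC-1 and vector libraries of each line. Depth limits ALDH1A2, RARB, ALDH1A1 and CRABP2 in T24T, and ALDH1A3 in UMUC3, which had 34 reads or fewer in each such library.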
